A study of Homo sapiens with 12 samples.

Results

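The miRNAs made by Huh7 cells during treatment with PlaB, an inhibitor of the splicing factor SF3B1, were examined. For this, 4 PlaB libraries, labelled with 4-thiouridine (4SU), were compared with 4 Control libraries that had no 4SU. All miRNAs with a read level above 100 CPM (reads scaled to a total of 1e6 miRNA reads a library) in each of the 8 libraries were included, which gave 159 of the 2652 mature miRNAs in the tables. The study also left out miRNAs absent from the curated database MirGeneDB, a filter not applied here. Huh7 cells derive from a human hepatocellular carcinoma, and the libraries came from 4 independent experiments, each with every condition. Cells were kept for 4 h in DMSO without 4SU (Control), in DMSO with 500 µM 4SU (DMSO) or in Pladienolide B (PlaB) with 500 µM 4SU (PlaB). The PlaB concentration is 500 µM in the sample labels and 1 µM in the study's methods. RNA of all conditions was treated with iodoacetamide, after which 4SU is read as cytosine, and the T>C conversion rate is the number of T>C conversions divided by the number of T positions covered by reads. Since PlaB and Control cells differ in both 4SU and PlaB, effects of the label and of the drug cannot be told apart in this comparison. Values of the 4 DMSO libraries are therefore given beside the results. Comparisons with DMSO share the PlaB or the Control libraries with the main comparison and are not independent of it.

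Primary miRNA transcripts are cut in the nucleus by the Microprocessor complex of Drosha and DGCR8, and the resulting hairpins are cut by Dicer into a duplex. One strand of the duplex, the guide, is usually kept in an Argonaute protein, and the other, the passenger strand, is usually lost. Many hairpins lie in introns of protein-coding or long non-coding transcripts, and SF3B1 is the part of the U2 snRNP that recognises the branch point of introns. PlaB binds SF3B1 and blocks splicing.

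The mature sequences of the miRNAs with the highest T>C conversion rates in PlaB are shown first, since their T positions (U in the RNA) are where conversions are read. Sequences are those of RefSeq for GRCh38.p14, written 5′ to 3′, with the seed (bases 2 to 8) in capitals. miR-21-3p, miR-148a-5p and miR-483-3p, named below, had no mature sequence in the reference used and are not shown. No 2 of the miRNAs shown in this first set share a seed.
miR-4521: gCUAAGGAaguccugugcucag
miR-25-5p: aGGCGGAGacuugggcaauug
miR-181a-2-3p: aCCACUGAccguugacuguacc
miR-92b-3p: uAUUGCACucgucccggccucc
miR-93-3p: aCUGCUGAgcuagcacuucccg
miR-424-3p: cAAAACGUgaggcgcugcuau
miR-30a-5p: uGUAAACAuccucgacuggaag
miR-7-5p: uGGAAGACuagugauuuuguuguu

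The next set shows miRNAs whose PlaB rates did not pass the threshold against Control but lay below those of DMSO. The 2 strands of the miR-455 hairpin are both in it.
miR-128-3p: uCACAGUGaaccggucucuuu
miR-885-5p: uCCAUUACacuacccugccucu
miR-222-3p: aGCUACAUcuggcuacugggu
miR-455-3p: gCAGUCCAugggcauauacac
miR-455-5p: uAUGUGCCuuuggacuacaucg
miR-96-5p: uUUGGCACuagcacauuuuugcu
miR-339-3p: uGAGCGCCucgacgacagagccg

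The last set shows miRNAs with fewer reads in PlaB than in Control, besides miR-4521 and besides miR-21-3p and miR-148a-5p, which had no sequence.
miR-374b-3p: cUUAGCAGguuguauuaucauu
miR-32-3p: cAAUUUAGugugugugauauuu
miR-335-3p: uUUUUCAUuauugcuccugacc

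The tables held 1667668 to 2393680 reads in the Control libraries and 1522210 to 1979696 in the PlaB libraries. The 159 miRNAs took up 98.6% to 98.9% of the reads. Of them, 55 to 70 lacked any conversion in the single Control libraries and 31 to 44 in the single PlaB libraries, so that depth limits the T>C results for the rarer miRNAs. Hepatocyte miRNAs were abundant in all 8 libraries, with miR-122-5p between 55350 and 90870 CPM. The 3 erythroid markers, the 4 markers of myeloid and lymphoid cells and the 3 muscle markers were between 0 and 6.62 CPM, with miR-486-5p highest and with miR-144-3p, miR-142-3p and miR-206 at 0 in all 8 libraries. The 2 neural markers reached 20.4 CPM (miR-9-5p). The 2 endothelial markers were present in all 8 libraries, miR-126-3p at 385 to 559 CPM and miR-126-5p at 20.5 to 39.2, as were the 3 mesenchymal markers, led by miR-143-3p at 62.8 to 137 CPM. All libraries are labelled as Huh7 cells, a single cell line, and the source of these marker reads was not tested. No pair of libraries held identical values.

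Conversions above the Control level were measured in the presence of PlaB, and the mean T>C conversion rate was higher in each PlaB library than in each Control library. Averaged over the 159 miRNAs, it was 0.199% ± 0.0254 in PlaB and 0.0240% ± 0.00211 in Control (SD, n = 4). The lowest PlaB library stood at 0.166% and the highest Control library at 0.0260%. The difference was 0.175 percentage points (p = 0.0286, two-sided exact permutation test, which can give no smaller p with 4 libraries a side), and sign flips of the 4 within-experiment differences gave an exact p of 0.125, the smallest possible with 4 pairs. The fold between the conditions was 8.28 for this mean, 5.55 when conversions were pooled over miRNAs, and 3.76 over the miRNAs with more than 1000 CPM. The DMSO mean was 0.359% ± 0.0253.

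At a Benjamini-Hochberg adjusted p under 0.05 in edgeR's quasi-likelihood test of conversions, the PlaB rate was above the Control rate for 63 of the 159 miRNAs (39.6%) and below it for 1 (0.629%). This test takes its spread from all miRNAs together, so its SEs and p-values do not measure the spread of a single miRNA between libraries. All 4 PlaB libraries lay above all 4 Control libraries for 60 miRNAs (37.7%), of which 54 were among the 63. Mean PlaB rates of the 63 lay between 0.0148% and 4.77% (median 0.135%), and were over 0.1% for 42 and over 1% for 6. For the 55 of them with more than 3 Control conversions, the pooled rate in PlaB was 1.82 to 158.5 times that in Control, with a median of 5.14. Of the remaining 95 miRNAs, 29 had a lower rate in PlaB than in DMSO, a comparison in which 64 of the 159 (40.3%) were lower and 0 higher in edgeR's test (75 and 0 at an unadjusted p under 0.05), and 66 passed neither threshold. Whether a miRNA passed the threshold moved with its depth: 5 of the 40 miRNAs with the fewest covered T positions in PlaB passed, 9 of 40 and 19 of 39 in the next groups by depth, and 30 of the 40 with the most. The median number of PlaB conversions was 193 for the 63 miRNAs and 8 for those past in neither direction.

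**Figure D1:**
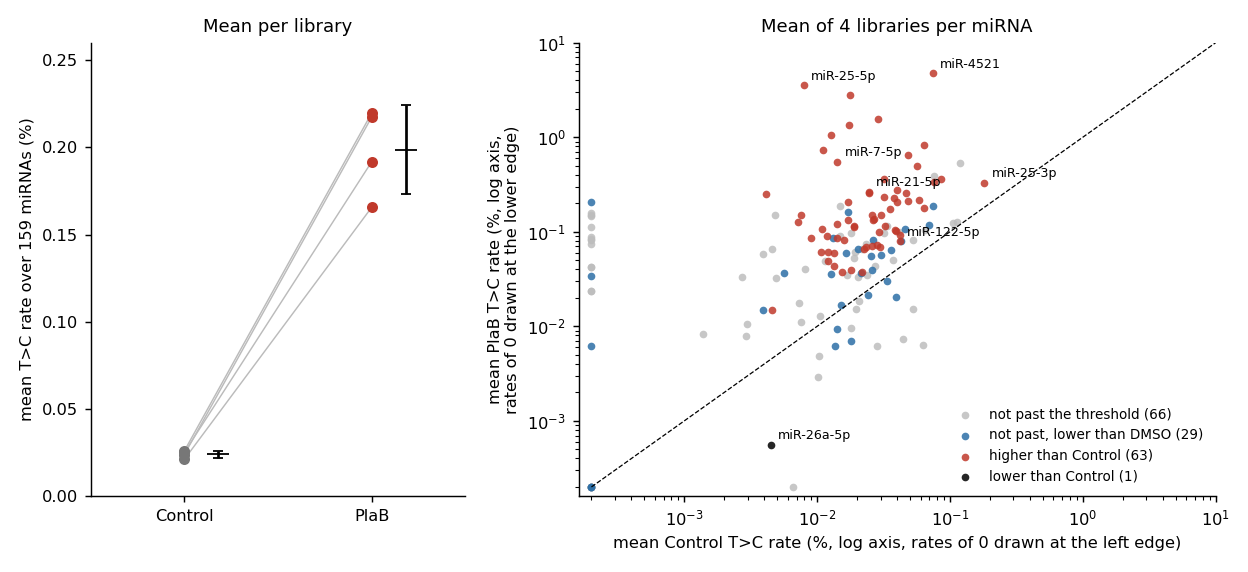
T>C conversion rates in Control and PlaB. Left, the mean rate over 159 miRNAs in percent for each library, with lines joining libraries of one experiment and bars for the mean ± SD (n = 4). All PlaB libraries lie above 0.16% and all Control libraries below 0.03%. Right, each point is a miRNA, with its mean Control rate on the x axis and its mean PlaB rate on the y axis (both in percent, log axes), coloured by its result in edgeR's tests, and the dashed line marks equal rates. miR-4521 and miR-25-5p lie highest, and miR-26a-5p lies below the line.

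The highest rate in PlaB was that of miR-4521, whose locus on chromosome 17 has no host gene in the GENCODE 44 annotation (mature sequence at chr17:8186948-8186969, plus strand, GRCh38). Its T>C conversion rates were 8.28%, 8.23%, 1.39% and 1.20% in the PlaB libraries of experiments 1 to 4, and 0.0429%, 0.100%, 0.113% and 0.0400% in the Control libraries. The PlaB libraries fell into a high pair and a low pair, both above every Control library. In DMSO the rates were also split, at 0.883%, 8.46%, 0.631% and 7.95%, with the high values in experiments 2 and 4. The log2 fold change of PlaB over Control was 5.66 ± 0.549 (SE, with an edgeR adjusted p of 2.27e-21). Only 221 PlaB conversions and 4349 covered T positions stand behind these values. The SE and adjusted p rest on a spread shared by all miRNAs, and do not measure the split between the PlaB libraries.

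The next rates belonged to passenger strands of abundant hairpins. For miR-25-5p, from the hairpin of the oncogenic miR-25 in an intron of MCM7 on chromosome 7 (chr7:100093610-100093630, minus strand), the PlaB libraries had 3.71%, 4.25%, 2.76% and 3.38%. In Control it had a single conversion in 4 libraries. The ratio of the pooled rates was 538, with an exact 95% interval of 95.8 to 21320 that covers counting error only. DMSO had 3.43% ± 0.457, and PlaB and DMSO differed by a log2 fold change of 0.03 ± 0.355 (SE, with an edgeR adjusted p of 0.995).

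miR-181a-2-3p, the passenger strand of one of the hairpins that give miR-181a, lies in an intron of the long non-coding RNA MIR181A2HG (chr9:124692518-124692539, plus strand). Its PlaB rates were 2.96%, 2.10%, 3.75% and 2.46%, against 0.0128% to 0.0277% in Control. It gained 547 conversions in PlaB against 5 in Control, a log2 fold change of 7.14 ± 0.539 (SE, with an edgeR adjusted p of 1.13e-32). Its DMSO rate was 3.78% ± 0.388, and the PlaB rate was not past the threshold against it (log2 fold change -0.45 ± 0.274 SE, edgeR adjusted p = 0.179).

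For miR-21-3p, the passenger strand of miR-21, the PlaB libraries had 1.47%, 1.18%, 2.19% and 1.46%, and the Control libraries 0.0136% to 0.0495%. miR-148a-5p, the passenger strand of the liver-enriched miR-148a, had PlaB rates of 1.08% to 1.57% and only 2 Control conversions. Both were read at similar rates in DMSO, with means of 1.23% and 1.29%, and neither passed the threshold between PlaB and DMSO. For miR-21-3p that log2 difference was 0.35 (SE 0.345) and for miR-148a-5p 0.07 (SE 0.654), so changes of some size in either direction remain within the error.

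miR-92b-3p, from an exon of the long non-coding RNA THBS3-AS1 (chr1:155195237-155195258, plus strand), kept less of its DMSO rate than those above. Its PlaB rates were 1.13%, 1.10%, 1.06% and 0.900%, close together and above the 0% to 0.0352% of Control. Its DMSO rate was 2.95% ± 0.259, and every DMSO library lay above every PlaB library (log2 fold change of PlaB over DMSO -1.49 ± 0.304 SE, edgeR adjusted p = 1.01e-05). miR-30a-5p, the guide strand of miR-30a from an intron of LINC00472 (chr6:71403595-71403616, minus strand), showed the same order, with 0.646% ± 0.202 in PlaB, 0.0483% ± 0.0278 in Control and 1.51% ± 0.203 in DMSO (SD, n = 4). For miR-30a-5p the log2 fold change of PlaB over DMSO was -1.27 (edgeR adjusted p = 0.00484, or 0.0513 once DMSO replicates 1 and 2, which combine 3 sequencing runs, were left out).

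miR-93-3p and miR-424-3p, passenger strands from MCM7 (chr7:100093777-100093798, minus strand) and from a hairpin without annotated host gene on the X chromosome (chrX:134546644-134546664, minus strand), rested on fewer conversions. Rates of miR-93-3p were 0.631% to 1.03% in PlaB and 0.0434% to 0.100% in Control, from 65 and 6 conversions. For miR-424-3p they were 0.484% to 0.999% in PlaB, and the 4 Control libraries held a single conversion. Neither passed the threshold against DMSO, where the means were 1.61% and 0.846%.

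miR-7-5p, a miRNA encoded at several loci, among them MIR7-1 in an exon of HNRNPK (chr9:83969811-83969834, minus strand) and MIR7-3 in an intron of MIR7-3HG (chr19:4770700-4770723, plus strand), had both many reads and a high rate. Its PlaB rates were 0.458%, 0.545%, 0.690% and 0.514%, and its Control rates 0.00901% to 0.0197%. With 10675 conversions in PlaB and 294 in Control, the ratio of the pooled rates was 40.3 (exact 95% interval 35.9 to 45.4, counting error only). The DMSO rate was 0.596% ± 0.122, and the log2 fold change of PlaB over DMSO was -0.11 ± 0.127 (SE, with an edgeR adjusted p of 0.549). Since 96.8% of its reads mapped to more than 1 position, its loci cannot be told apart here.

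**Figure D2:**
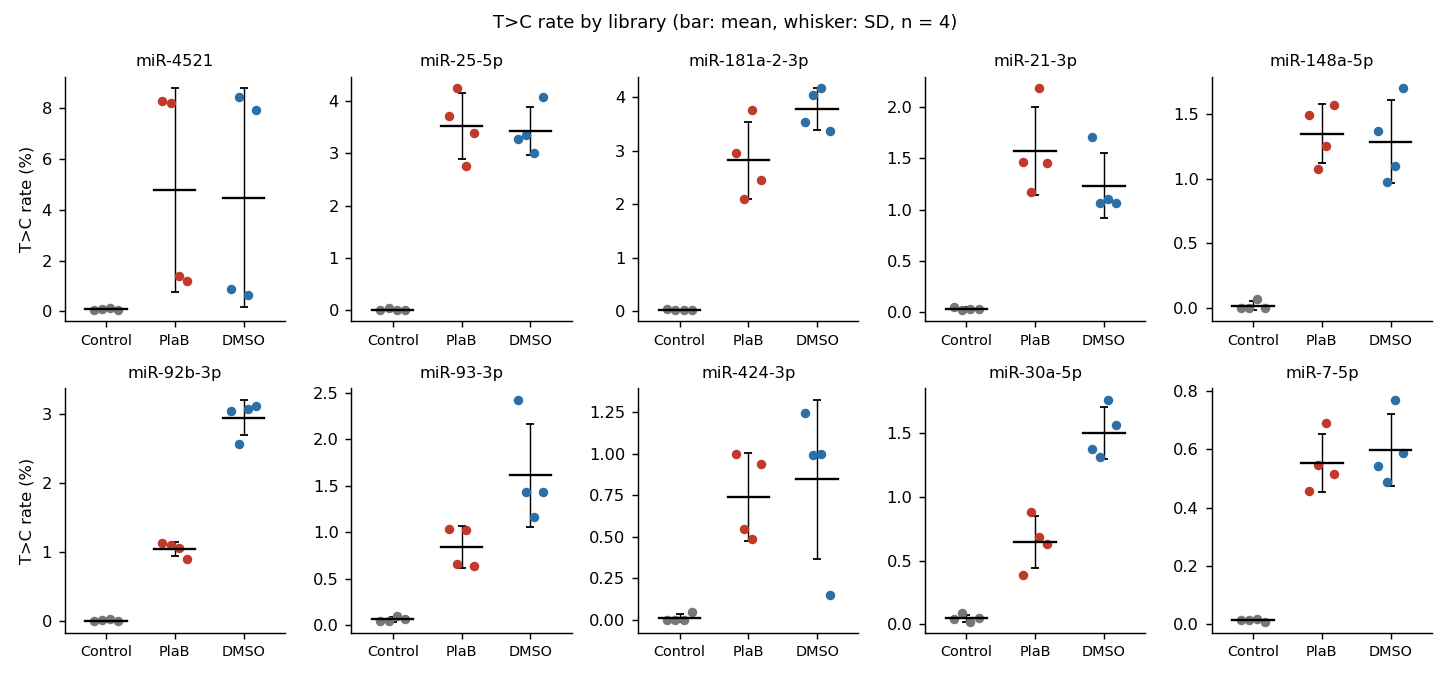
T>C conversion rate in percent for each library of Control, PlaB and DMSO, for the 10 miRNAs with the highest mean PlaB rates among those past the threshold with no overlap between PlaB and Control. Points are libraries, bars are means and whiskers SDs (n = 4). Control points lie at or near 0 throughout. miR-92b-3p and miR-30a-5p are lower in PlaB than in DMSO, and miR-4521 shows a high and a low pair of libraries in both labelled conditions.

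When reads with a conversion were counted in CPM, with the Control level subtracted, the abundant miRNAs held most of them. Such a count depends on the number of U in a miRNA, which is 11 in miR-7-5p and 2 in miR-339-3p. It is not a share of new miRNA. The study states that its method cannot directly compare how fast different miRNAs are made. The miRNAs with more converted reads in PlaB than in Control gained 7355 CPM together. The 8 past the threshold with the most of them, miR-21-5p, miR-7-5p, miR-92a-3p, miR-16-5p, miR-122-5p, miR-25-3p, miR-22-3p and miR-148a-3p, held 80.9% of that sum and 54.1% of all reads. Over all 159 miRNAs the sum was 7339 CPM in PlaB and 14413 CPM in DMSO, a ratio of 0.509.

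miR-21-5p alone, an oncogenic miRNA from an exon of VMP1 transcripts (chr17:59841273-59841294, plus strand), held 47.0% of the new converted reads. Its PlaB rates were 0.316%, 0.270%, 0.250% and 0.227%, and its Control rates 0.0198% to 0.0282%. The log2 fold change was 3.44 (SE 0.116), with 29883 conversions in PlaB and 3836 in Control. In DMSO it had 0.332% ± 0.0552, and the PlaB rate was lower by a log2 difference of -0.32 ± 0.0941 (SE, edgeR adjusted p = 0.00351). That call was lost without the replicate block (adjusted p = 0.0588) and without DMSO replicates 1 and 2 (adjusted p = 0.251).

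miR-122-5p, the dominant miRNA of hepatocytes, from an exon of MIR122HG (chr18:58451088-58451109, plus strand), was nearer to its Control rate. Its PlaB libraries had 0.0766%, 0.0852%, 0.0787% and 0.0788%, and its Control libraries 0.0413%, 0.0442%, 0.0476% and 0.0340%. The groups did not overlap, but the pooled rate rose only 1.96-fold (exact 95% interval 1.85 to 2.07, counting error only). The log2 fold change was 0.94 ± 0.157 (SE, with an edgeR adjusted p of 2.57e-08). In DMSO its rate was 0.323% ± 0.0350, and the log2 fold change of PlaB over DMSO was -2.01 (SE 0.127).

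miR-25-3p had the smallest ratio of the 55, 1.82, on a Control rate of 0.181% ± 0.0225, and 0.330% ± 0.0296 in PlaB. Among the other abundant miRNAs, miR-92a-3p of the oncogenic MIR17HG transcript rose from 0.0257% ± 0.00318 to 0.0715% ± 0.00448, miR-16-5p, which targets cell cycle mRNAs, from 0.0189% ± 0.00631 to 0.112% ± 0.0194, and miR-22-3p from 0.0246% ± 0.0141 to 0.257% ± 0.0330. For miR-148a-3p the means were 0.0270% and 0.135%. PlaB libraries lay above Control libraries without overlap for all 8. Among the 20 miRNAs with the most Control reads, 19 passed the threshold with a higher rate, beside 63 of 159 (39.6%) in all. The exception was miR-26a-5p. Passing moved with depth, and 30 of the 40 miRNAs with the most covered T positions passed.

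Clusters and families are described by counts beside the 63 of 159 (39.6%) among all miRNAs tested, with no test. The miR-106b~25 cluster in MCM7 had median rates of 0.302% in PlaB and 0.0346% in Control, against 0.0718% and 0.0176% over all 159 miRNAs. All 6 of its strands rose over Control. So did all 5 members of the miR-232724 clusters, between 0.0431% for miR-27b-3p and 0.114% for miR-23a-3p, and all 3 of the miR-181 family. miR-106b-5p lost its call without experiment 1 or 3 (adjusted p up to 0.168 over its alternatives in edgeR's test).

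In the miR-30 family 5 of 6 rose, and the sixth, miR-30b-5p, had no conversion in any of the 12 libraries. In the miR-99, miR-100 and miR-125 families 4 of 6 rose, led by miR-99b-5p at 0.364% ± 0.0249 and miR-125b-5p at 0.363% ± 0.110 in PlaB. In the MIR17HG cluster 4 of 7 rose. miR-92a-3p kept its call in all alternatives, and those of miR-19b-3p, miR-20a-5p and miR-17-5p were lost in 4 to 7 alternatives each.

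The tumour-suppressive let-7 family had 0 of 4 members past the threshold, with a median PlaB rate of 0.00839% and a median Control rate of 0.0138%. let-7a-5p had 8 PlaB conversions against 26 in Control and 99 in DMSO. let-7g-5p went the other way, with 15 PlaB conversions, 0 in Control and 12 in DMSO, and PlaB rates of 0.458%, 0.144%, 0% and 0% (edgeR adjusted p = 0.135). The miR-532~660 cluster in CLCN5 had 0 of 6 past the threshold, and 4 of its 6 lay below DMSO, where 64 of all 159 did (40.3%). None of these 4 calls held without DMSO replicates 1 and 2 (edgeR adjusted p from 0.0696 to 0.450). Among them was miR-501-3p with 2 PlaB, 0 Control and 72 DMSO conversions. miR-221 and miR-222 had 0 of 2. In the cluster of miR-424, miR-503 and miR-450, miR-424-3p rose and the other 4 tested did not pass.

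The 29 miRNAs that did not pass the threshold against Control but were lower than DMSO had a median rate of 0.0368% in PlaB, 0.0181% in Control and 0.274% in DMSO. In edgeR's test of DMSO against Control 27 of the 29 were higher in DMSO, as were 122 of all 159 (76.7%). The missed threshold does not show that they were at the Control level. For 15 of the 29 the exact 95% interval of the ratio of pooled rates lay above 1, for 1, let-7a-5p, below 1, and for 11 it held 1, counting error only. The other 2 had no conversion in either condition. Without DMSO replicates 1 and 2, 10 of the 29 remained below DMSO.

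miR-455-3p, from an intron of the collagen gene COL27A1 (chr9:114209487-114209507, plus strand), came closest to equal rates among those named. Its PlaB rates were 0.0170%, 0.0312%, 0.0481% and 0.0255%, and its Control rates 0.0221%, 0.0214%, 0.0532% and 0.0370%, so that the groups overlapped. The ratio of pooled rates was 0.918 (exact 95% interval 0.590 to 1.42). DMSO libraries had 0.137% ± 0.0200, and the log2 fold change of PlaB over DMSO was -2.23 ± 0.479 (SE, with an edgeR adjusted p of 3.01e-05).

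For its other strand, miR-455-5p, DMSO had 1.11% ± 0.269. PlaB libraries had 0.392%, 0.0257%, 0% and 0.0546% and Control libraries 0.182%, 0%, 0.0329% and 0.0660%. The ratio of pooled rates was 2.02 with an interval of 0.875 to 4.95, and PlaB was below DMSO by a log2 difference of -3.83 (SE 0.796). These PlaB and Control values overlapped, and experiment 1 was the highest in both.

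miR-128-3p and miR-885-5p were near the threshold. miR-128-3p, from introns of R3HDM1 (chr2:135665446-135665466, plus strand) and ARPP21 (chr3:35744527-35744547, plus strand), had 0.0465% to 0.0797% in PlaB and 0.0241% to 0.0518% in Control. Its adjusted p was 0.0678 in edgeR's test, between 0.0177 and 0.0447 under 5 alternatives and between 0.0693 and 0.294 under the other 6. The hepatocyte-enriched miR-885-5p, from an intron of ATP2B2 (chr3:10394531-10394552, minus strand), had 0.0226% to 0.0550% in PlaB and 0.00469% to 0.0207% in Control with no overlap. Its adjusted p was 0.0505 in edgeR's test, between 0.0155 and 0.0495 under 4 alternatives and between 0.0531 and 0.373 under the other 6. PlaB lay below DMSO for both (edgeR adjusted p = 1.79e-09 and 0.000173), with DMSO means of 0.264% and 0.146%.

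miR-222-3p, an oncogenic miRNA from an intron of MIR222HG (chrX:45747036-45747056, minus strand), had 66 PlaB and 41 Control conversions, a ratio of 1.97 (interval 1.31 to 2.98), and its PlaB and Control libraries overlapped. miR-96-5p (chr7:129774739-129774761, minus strand) had 37 and 13, a ratio of 3.06 (interval 1.59 to 6.28), and miR-483-3p had 26 and 16, a ratio of 2.03 (interval 1.05 to 4.05). The DMSO conversions were 312, 297 and 196. The lower rate of miR-222-3p in PlaB than in DMSO was no longer past the threshold once DMSO replicates 1 and 2 were left out (edgeR adjusted p = 0.118).

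miR-339-3p, from an intron of C7orf50 (chr7:1022955-1022977, minus strand), had no Control conversion. PlaB libraries had 0.572%, 0.200%, 0% and 0.0523%, from 16 conversions, and DMSO libraries 1.60% ± 0.192. The pooled PlaB rate was 7.06 times the limit of 3 conversions over the Control libraries. This ratio leaves out the error of the PlaB conversions and is not a lower bound. The adjusted p was 0.0678 in edgeR's test, and 1 PlaB library was at 0 as the Control libraries were. With the 12 libraries in 1 fit the adjusted p was 0.00117, and without the replicate block 0.00569, and under the other 7 alternatives it was between 0.0555 and 0.492.

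**Figure D3:**
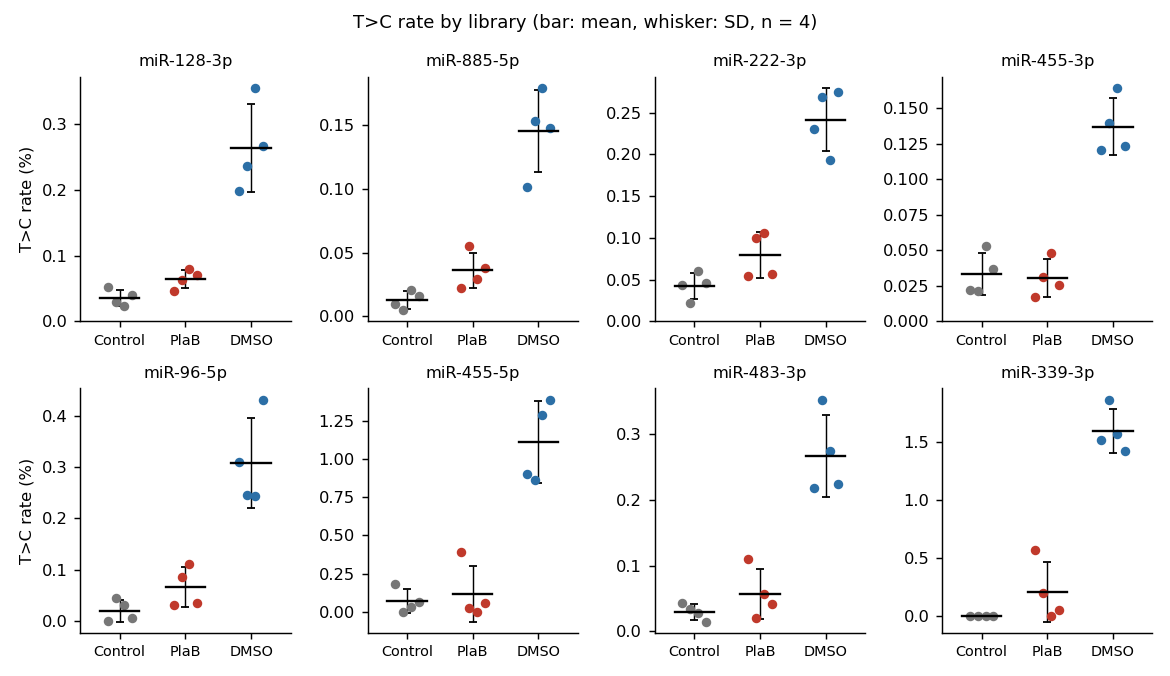
T>C conversion rate in percent for each library of Control, PlaB and DMSO, for the 8 miRNAs with the most DMSO conversions among those not past the threshold against Control and lower than DMSO. Points are libraries, bars are means and whiskers SDs (n = 4). All DMSO libraries lie above all PlaB libraries in each panel, and Control and PlaB overlap except for miR-885-5p.

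No conversion in either PlaB or Control was found for 12 miRNAs, of which 6 had none in DMSO either. The 2 of the 12 that were higher in DMSO than in Control, miR-335-5p and miR-941, were named after their values were seen. miR-335-5p, from an intron of MEST (chr7:130496126-130496148, plus strand), had 0 conversions over 9561 covered T positions in PlaB, which allows a rate of up to 0.0314%, and 73 in DMSO, at 0.419% ± 0.136. The other strand of this hairpin, miR-335-3p, had mean rates of 0.150% in PlaB and 0.00484% in Control, and did not pass the threshold. miR-941, from repeated copies in DNAJC5, had 0 over 17162 positions, which allows up to 0.0175%, and 34 in DMSO. miR-30b-5p had the most covered positions of the 12, 36375 in PlaB, and its rate was at most 0.00825% by the same limit.

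Of the miRNAs that passed no T>C threshold in any of the comparisons, miR-186-5p had the most covered T positions, 431413 in PlaB. It had 62 PlaB and 51 Control conversions, and the ratio of pooled rates was 1.36 (exact 95% interval 0.927 to 2.02). miR-18a-5p of MIR17HG had rates of 0.125% ± 0.0414 in PlaB, 0.105% ± 0.0300 in Control and 0.172% ± 0.0456 in DMSO, so that its Control rate was high. miR-378a-3p and miR-3613-5p had up to 6 conversions in either condition, with intervals of the ratio of 0.0378 to 2.14 and 0.0850 to 2.46. The intervals of both miRNAs hold a fall and a rise. Over all 66 miRNAs that passed neither threshold the median rate was 0.0380% in PlaB and 0.00782% in Control, and the exact interval of the ratio lay above 1 for 25, held 1 for 31 and could not be computed for the 10 without conversions.

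1 miRNA, miR-26a-5p, a growth-restraining miRNA from introns of CTDSP2 and CTDSPL, had a lower rate in PlaB than in Control. PlaB libraries had 2, 7, 0 and 2 conversions, and Control libraries 10, 38, 33 and 18, at 50590 and 47150 CPM. The rates were 0.000558% ± 0.000643 and 0.00447% ± 0.00262, the PlaB libraries lay below the Control libraries, and the log2 fold change was -3.04 ± 0.573 (SE, with an edgeR adjusted p of 9.26e-07). DMSO had 24 conversions, and miR-26a-5p was also the 1 miRNA of 159 (0.629%) with a lower rate in DMSO than in Control. Of its reads, 98.8% mapped to more than 1 position. These rates were below the median Control rate of the 159 miRNAs, 0.0176%.

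Strands of the same hairpin differed in their rates. Both strands were among the 159 miRNAs for 25 hairpins, and both passed the threshold for 11, 1 passed for 5 and none for 9. The strand with fewer Control reads had the higher mean PlaB rate in 17 of the 25 and the lower in 8. It was higher in 10 of the 11 hairpins with both strands past and in 7 of the other 14, but a rarer strand needs a higher rate to pass, so that passing favours this order. miR-122, miR-15b and miR-99b had the opposite order in all 4 libraries, with ratios of the rarer over the more abundant strand of 0.0780, 0.0537 and 0.318. The comparison of strands is a description, with no test.

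Among the 11 hairpins with both strands past, the widest ratio was that of miR-30e from an intron of NFYC, at 33.5, with 0.496% ± 0.0978 for miR-30e-3p and 0.0148% ± 0.00200 for miR-30e-5p. Ratios of 11.0 for miR-181a, 10.7 for miR-25, 10.0 for miR-148a and 8.39 for miR-93 followed. In Control the strands of miR-30e differed in the same order, at 0.0560% and 0.00458%, and those of miR-25 in the opposite order, at 0.00794% for miR-25-5p and 0.181% for miR-25-3p. Of these 11, the strands of miR-374a and miR-22 were closest, at 0.126% and 0.108%, and at 0.205% and 0.257%. The calls of miR-374a-3p and miR-22-5p were lost without 1 of several experiments (adjusted p up to 0.140 and 0.246 in edgeR's test). miR-181a-5p is made from more than 1 hairpin, and 89.4% of its reads mapped to more than 1 position, so its ratio joins hairpins.

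Among the 63 miRNAs, rates fell with abundance (Spearman's rho -0.57 across the 63, and 0.06 across the 159), as a description across miRNAs that share libraries and are not independent. A higher rate is needed to pass the threshold where fewer T positions are covered. By position in GENCODE 44 annotation, 19 of 33 miRNAs in exons and 28 of 86 in introns of a host transcript passed, beside 63 of 159 in all (39.6%). So did 4 of 9 with both kinds of locus, 4 of 13 without a host gene and 8 of 18 with no locus in the table used here. Median covered T positions in PlaB were 44101 for the exonic and 23804 for the intronic miRNAs, and median PlaB rates were 0.0715% and 0.0767%. Of the 29 miRNAs not past Control and lower than DMSO, 20 were intronic and 2 exonic, beside 86 and 33 of all 159. Only 10 of the 29 remained below DMSO without DMSO replicates 1 and 2. The part of depth in these counts was not tested. Strands of a hairpin were counted singly and could fall in both classes, as miR-93-5p (exon) and miR-93-3p (intron) of MCM7 did. The study compared background-subtracted rates of PlaB with those of DMSO in its own filtered set. It reported no significant difference between exonic and intronic miRNAs.

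Read levels changed for few miRNAs. In edgeR's test of reads 9 of 159 miRNAs (5.66%) had fewer reads in PlaB than in Control and 1 (0.629%) had more, and the size of the log2 change was under 0.2 for 121. CPM values of PlaB lay below all Control values without overlap for 9 miRNAs (5.66%), and above them for 2 (1.26%), miR-548k and miR-574-3p, which were named after their values were seen and did not pass the threshold (adjusted p = 0.0519 and 0.380 in edgeR's test). miR-122-5p did not pass, with 59150 to 90870 CPM in PlaB and 55350 to 88380 in Control (log2 fold change 0.13 ± 0.0707 SE, edgeR adjusted p = 0.305).

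miR-4521 fell most, with 264, 150, 146 and 175 CPM in PlaB against 1124, 673, 880 and 840 in Control (log2 fold change -2.25 ± 0.110 SE, edgeR adjusted p = 2.35e-08). miR-21-3p had 662, 895, 622 and 893 CPM in PlaB and 2426, 2302, 1724 and 1492 in Control (log2 fold change -1.34, SE 0.144). miR-148a-5p had 156, 147, 157 and 192 CPM in PlaB and 329, 340, 327 and 407 in Control (log2 fold change -1.09, SE 0.0985). None of the 3 overlapped between the conditions, and these 3 were also among the miRNAs with the highest T>C rates. Whether converted reads were lost in mapping, which would lower read counts, was not tested.

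miR-374b-3p, the passenger strand of a hairpin in an exon of FTX (chrX:74218557-74218578, minus strand), fell to 103 to 171 CPM from 250 to 311 (log2 fold change -1.01 ± 0.111 SE, edgeR adjusted p = 4.18e-05). miR-32-3p from an intron of TMEM245 (chr9:109046231-109046252, minus strand) fell to 173 to 209 CPM from 257 to 391 (log2 fold change -0.84, SE 0.123). miR-335-3p from an intron of MEST (chr7:130496162-130496183, plus strand) fell to 112 to 166 CPM from 195 to 203 (log2 fold change -0.59, SE 0.117), and without experiment 2 its adjusted p was 0.0620 in edgeR's test. Unlike the 3 above, they had 1, 3 and 17 PlaB conversions and did not pass the T>C threshold against Control.

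The other 3 that fell, miR-25-5p, miR-374a-3p and miR-21-5p, overlapped between the conditions and changed within each experiment. miR-21-5p had 189200, 307100, 238700 and 199200 CPM in Control and 164800, 265500, 191200 and 178300 in PlaB, lower in all 4 experiments (log2 fold change -0.20 ± 0.0479 SE, edgeR adjusted p = 0.0244). The call was lost in 8 of 12 alternatives. miR-194-5p, a hepatocyte miRNA, was the 1 that rose (log2 fold change 0.26 ± 0.0680 SE, edgeR adjusted p = 0.0456), and its call was lost in 7 of 12. Without the replicate block 6 fell and 0 rose, with adjusted p of 0.385 for miR-25-5p, 0.667 for miR-374a-3p, 0.851 for miR-21-5p and 0.620 for miR-194-5p in edgeR's test.

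The same miRNAs in DMSO stood near PlaB. Mean DMSO levels were 181 CPM for miR-4521, 692 for miR-21-3p, 163 for miR-148a-5p, 157 for miR-374b-3p and 222 for miR-32-3p, against 184, 768, 163, 134 and 188 in PlaB. In edgeR's test of DMSO against Control, 11 of 159 miRNAs (6.92%) fell, and 7 of the 9 lower in PlaB were among them. None of the 10 that changed passed the threshold between PlaB and DMSO, where 1 of 159 (0.629%), miR-4326, rose and 1 (0.629%), miR-92b-3p, fell. For miR-4521 the log2 fold change of PlaB over DMSO was 0.02 (SE 0.105), and for miR-32-3p, which had the widest such gap of the 10 after miR-374a-3p, -0.25 (SE 0.115, adjusted p = 0.355 in edgeR's test).

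**Figure D4:**
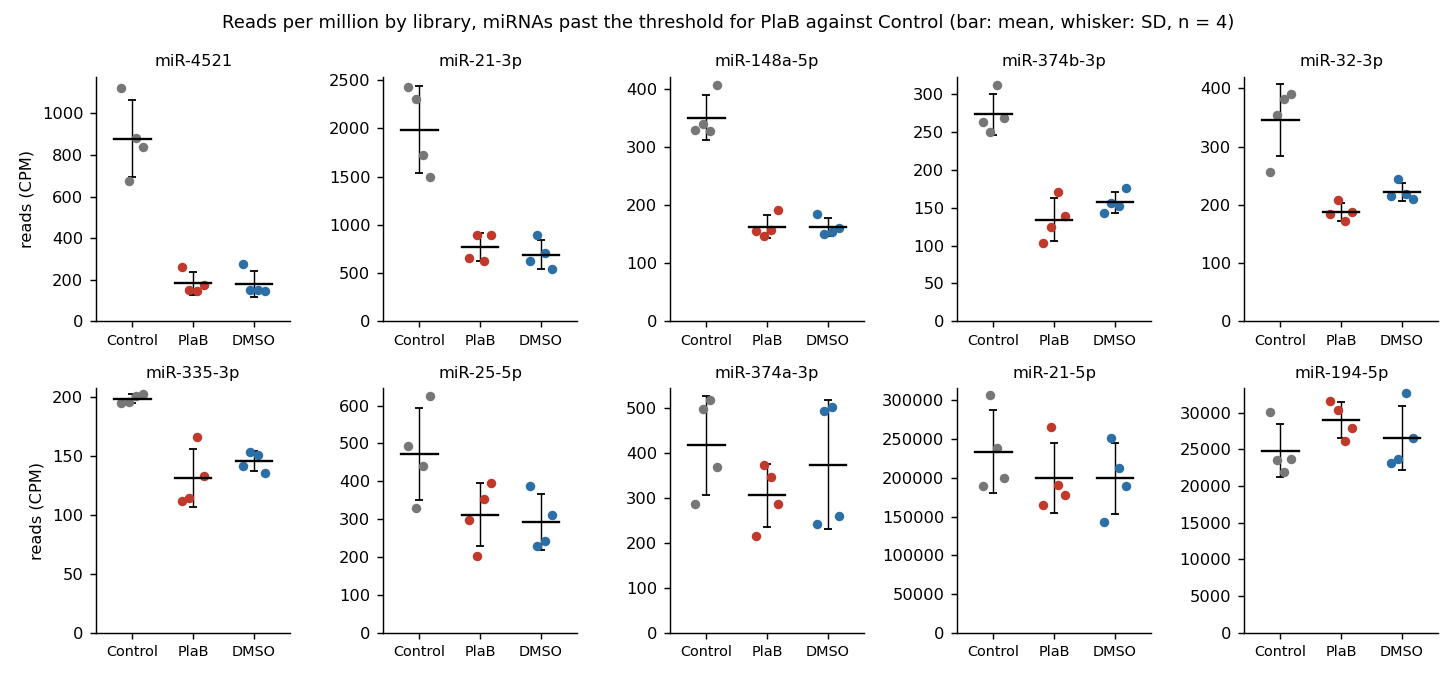
Reads in CPM for each library of Control, PlaB and DMSO, for the 10 miRNAs past the threshold between PlaB and Control. Points are libraries, bars are means and whiskers SDs (n = 4). In the first 6 panels, from miR-4521 to miR-335-3p, all Control libraries lie above all PlaB and DMSO libraries. In the others, PlaB and Control overlap.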

How the data were processed

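Small RNA libraries of 12 Huh7 samples were analysed, 4 per condition. The authors trimmed 4 bases with Trim Galore, dropped reads over 30 bases and ran SLAM-DUNK in nf-core slamseq 1.0.0 on GRCh38 with miRBase 22 coordinates, without a mapping quality filter and with SNP masking. The study states that for miRNA reads a default identity filter of the mapping overrode the mismatch limit it had set. Converted reads held 1.07 to 1.10 conversions on average in the PlaB libraries. Whether reads with several conversions were lost to the filter was not tested. The deposited counts are reads, T>C conversions and covered T positions per miRNA and library. The deposited CPM values are reads per library scaled by the authors to a total of 1e6. The conversion rates were deposited by the authors as a fraction, and were recomputed here from the counts and printed in percent. Reads that map to several positions were kept, so that related miRNAs may share reads, and PCR copies were not removed, so that intervals and limits cover counting error only.

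For conversions, edgeR 4.0.16 (quasi-likelihood test, R 4.3.3) was run with log covered T positions as offset, and reads with TMM normalisation, over the 159 miRNAs, with Benjamini-Hochberg adjustment over all of them and a threshold of 0.05. In the test of conversions the spread was shared across the miRNAs. The experiment was a block, since the study's methods describe 4 independent experiments. Same-numbered libraries deviated together in log2 CPM (median correlation 0.569, from 0.208 to 0.815), and less so in rates (0.0491, from 0.00257 to 0.120). Ratios of pooled rates have exact conditional 95% intervals, and a count of 0 was taken to allow 3 conversions over the 4 libraries. Scripts were tested on simulated data. Mean rates were compared by exact permutation in Python 3.11.15 with scipy 1.17.1. DESeq2 1.42.0, other normalisations, CPM minimums, fits without the block, over 12 libraries and without each replicate were tried as alternatives.

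Named miRNAs are those with the 10 highest PlaB rates among non-overlapping miRNAs past the threshold, the 8 with the most new converted reads, the 8 below DMSO with the most DMSO conversions, the 5 deepest past no threshold, those lower than Control, up to 6 non-overlapping read changes in each direction, hairpins with the 5 widest and 2 narrowest strand ratios, and examples from the lists of clusters and families. Others were named after their values were seen. The miRNAs compared and the lists were chosen with earlier results of these data known. Of the 159, 141 had a RefSeq mature sequence.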

Additional observations from a re-analysis of the deposited data

Results flagged for a closer look

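Among the 80 sets of 4 libraries examined, of mean rates and of the rates and read levels of named miRNAs, 6 held a library that stood far from the other 3. The rule flags about 1 in 20 sets of normally distributed values. It flags every set with conversions in a single library, so that this rate does not apply to such sets. The T>C conversion rate stood apart at 0.0699% for miR-148a-5p in Control replicate 3 (2 conversions), at 0.0318% for miR-25-5p in Control replicate 2 (1 conversion), at 0.0446% for miR-424-3p in Control replicate 4 (1 conversion) and at 0.0116% for miR-378a-3p in PlaB replicate 4 (2 conversions), with the other 3 libraries at 0 each time. For miR-455-5p the rate of PlaB replicate 1 was 0.392%, from 14 of the 17 PlaB conversions. The read level of miR-148a-5p was 407.0 CPM in Control replicate 4, above the other Control libraries.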

How the results depend on the processing

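The count of miRNAs with a higher T>C conversion rate in PlaB, 63, was 73 without the replicate block (62 shared), 76 with all 12 libraries in the fit, 58 by DESeq2, 60 with converted reads, 52 of 58 with edgeR's filterByExpr, 76 of 288 with no minimum, 46 of 60 over 1000 CPM, and 51 to 57 without 1 replicate. Of the 63, 46 kept their call in every alternative in which they were tested, as did the 1 lower, and no called miRNA changed sign. The difference in mean rate was 0.168 to 0.185 percentage points without 1 replicate, where 3 libraries against 3 allow no exact permutation p below 0.1. The 64 miRNAs lower in PlaB than in DMSO were 71 without the replicate block and 34 without DMSO replicates 1 and 2. The 9 miRNAs with fewer reads were 37 of 499 with filterByExpr, 44 of 1371 with no minimum, 1 of 60 over 1000 CPM and 6 to 12 without 1 replicate. The 1 with more reads was 0 without the replicate block, with all 12 libraries, over 1000 CPM, with RLE size factors and with library totals, 6 by DESeq2, 5 with filterByExpr, 20 with no minimum and 0 to 10 without 1 replicate. The filters test other miRNAs, and the cause of the other differences was not tested. DMSO against Control gave 122 higher and 1 lower, and 127 and 1 without the replicate block. With a median standard error of 0.877 on the log2 scale, depth limits the T>C results for the rarer miRNAs.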
